A study of Bos indicus with 11 samples.

Results

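The genes of sterol and fatty acid synthesis were examined in endometrial biopsies of Nelore beef cows whose pregnancy outcome became known only later. They were taken by gene symbol from a list of 36 genes that covers the steps from acetyl-CoA to cholesterol, the control of those steps by sterol regulatory element-binding proteins (SREBP), sterol movement and efflux, and fatty acid synthesis and desaturation. Of the 36 listed genes, 32 were matched by symbol among the 24616 genes of the table, and all 32 averaged 5 or more normalized counts across the 11 cows and so entered the comparison of 15081 genes. FDPS, the farnesyl pyrophosphate synthase, shares a row with RUSC1, and SC5D, the sterol C5-desaturase, is listed under its older symbol SC5DL. These 2 rows are described apart and are in no count of members, and STARD4 and LPIN1 were not matched.

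All cows were healthy, multiparous Nelore, synchronized and artificially inseminated (AI) at detected estrus. The biopsy was taken on day 6 after AI from the uterine horn on the side away from the ovary with the corpus luteum, and pregnancy was diagnosed on day 30, which put 6 cows in the pregnant (P) and 5 in the non-pregnant (NP) group. Each animal gave 1 library of polyA-selected RNA and is 1 replicate, named here by its group and cow number. All 11 cows had been inseminated and were chosen by the study for having progesterone within 1 range on the day of the biopsy, so the groups differ by the later diagnosis and not by a treatment. Cow P617 is labelled as pregnant and was kept so, but a supplement of the study names it as non-pregnant, and the main counts are also given without it.

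Cholesterol is built from acetyl-CoA through the mevalonate pathway to farnesyl pyrophosphate, which is joined to squalene, closed to lanosterol and then trimmed to cholesterol in the endoplasmic reticulum. When cell sterol is low, SCAP carries SREBP proteins to the Golgi, where they are cut and free to switch on the genes of sterol and fatty acid synthesis, while INSIG proteins hold them back when sterol is plentiful. Liver X receptors (LXR) respond to oxysterols and drive the opposite arm, with efflux through ABCA1 and ABCG1. In the early luteal phase the bovine endometrium is under progesterone and releases lipids and proteins that bathe the embryo before it attaches.

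The number of reads on genes was 9290949 to 13569085 per cow. Biopsies differed in how much uterine muscle they held. The row of the smooth muscle actins ACTG2 and ACTA2 was at 165234 normalized counts in P1541, 215006 in P617 and 89878 in NP638, and at 13869 to 72206 in the other 8 cows, and the former 3 are called muscle-rich. The summed level of 9 measured smooth muscle markers was 84293 to 667850 in P and 41812 to 282736 in NP cows, and all 9 were higher in P (2 with an unadjusted p under 0.05), while 9 of 9 stromal, 6 of 6 endothelial and 6 of 6 leukocyte markers were higher in NP (3, 5 and 4 with an unadjusted p under 0.05). Leaving out the muscle-rich biopsies did not level this: among the remaining 4 P and 4 NP cows all 9 smooth muscle markers were higher in P and all 9 stromal markers higher in NP, each with an unadjusted p under 0.05. The summed level of 12 epithelial markers was 2809 to 30443 in P and 13537 to 19786 in NP cows, and was lowest in P617. The median of this summed level was 19842 in P and 17923 in NP cows. By mean log2 level, 2 of the 12 markers were higher in P over all cows (median log2 fold change -0.32). This was 10 of 12 without P617 (0.22) and 12 of 12 without the muscle-rich biopsies (0.41, with 1 at an unadjusted p under 0.05). Markers of fat cells and of steroid-making cells summed to at most 101 and 116 in any cow. In such bulk tissue, fewer cells of a type and less RNA per cell cannot be told apart, and the part of these differences in the results for the sterol and fatty acid genes was not tested.

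Sterol synthesis genes were mostly higher in the endometrium of P cows, and the difference was small for most of them. Of the 16 measured genes of the 3 synthesis steps, 14 had a higher mean log2 level in P, with a median log2 fold change (P over NP) of 0.38, beside -0.0018 for all genes tested. The largest differences were in SQLE (0.85), MVK (0.65), DHCR7 (0.58) and HMGCS1 (0.58). No gene of the whole table had an adjusted p under 0.1 in limma, which is 0% of 15081 genes, so none of the 32 members passed the adjusted test (1182 genes had an unadjusted p under 0.05). On the recovered reads edgeR and limma-voom also called 0 genes, with 1151 and 1173 at an unadjusted p under 0.05, and DESeq2 called 201 of 14981 genes with an adjusted p. Therefore the counts that follow use the unadjusted p and the overlap of the groups.

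In limma, 7 of the 32 members had an unadjusted p under 0.05 and were higher in P, which is 21.9% of them, beside 2.35% of all genes tested. These were ACAT2, MVD, SQLE, LSS, DHCR7, SREBF2 and FADS2. The count was 3 without P1541, 11 without P1631 and 3 without NP2541, and MVD, LSS and DHCR7 were among the genes counted whichever cow was left out. Without P617 the count was 5 (PMVK, MVD, LSS, DHCR7 and FADS2). In that fit 15 of the 16 sterol synthesis genes were higher in P, with a median log2 fold change of 0.35. One member, ABCA1, was higher in NP with such a p, which is 3.12% of the members beside 5.49% of all genes. For MVD and DHCR7 the lowest P value exceeded the highest NP value, which was so for 0.239% of all genes. Both separations depend on the label of P617, which was at 805 for MVD and 895 for DHCR7. Were it an NP cow, the groups would overlap, since the lowest P values were 719 and 533. No member had every NP cow above every P cow, beside 0.855% of all genes. DESeq2 on the recovered reads gave MVD and DHCR7 an adjusted p under 0.1 (0.0748 and 0.0732), and it called 0.206% of all genes as higher in P. The study, which used DESeq2 on the same cows, had already listed both genes as higher in P. The members were chosen with earlier results known, so these values are not independent of that list.

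**Figure D1:**
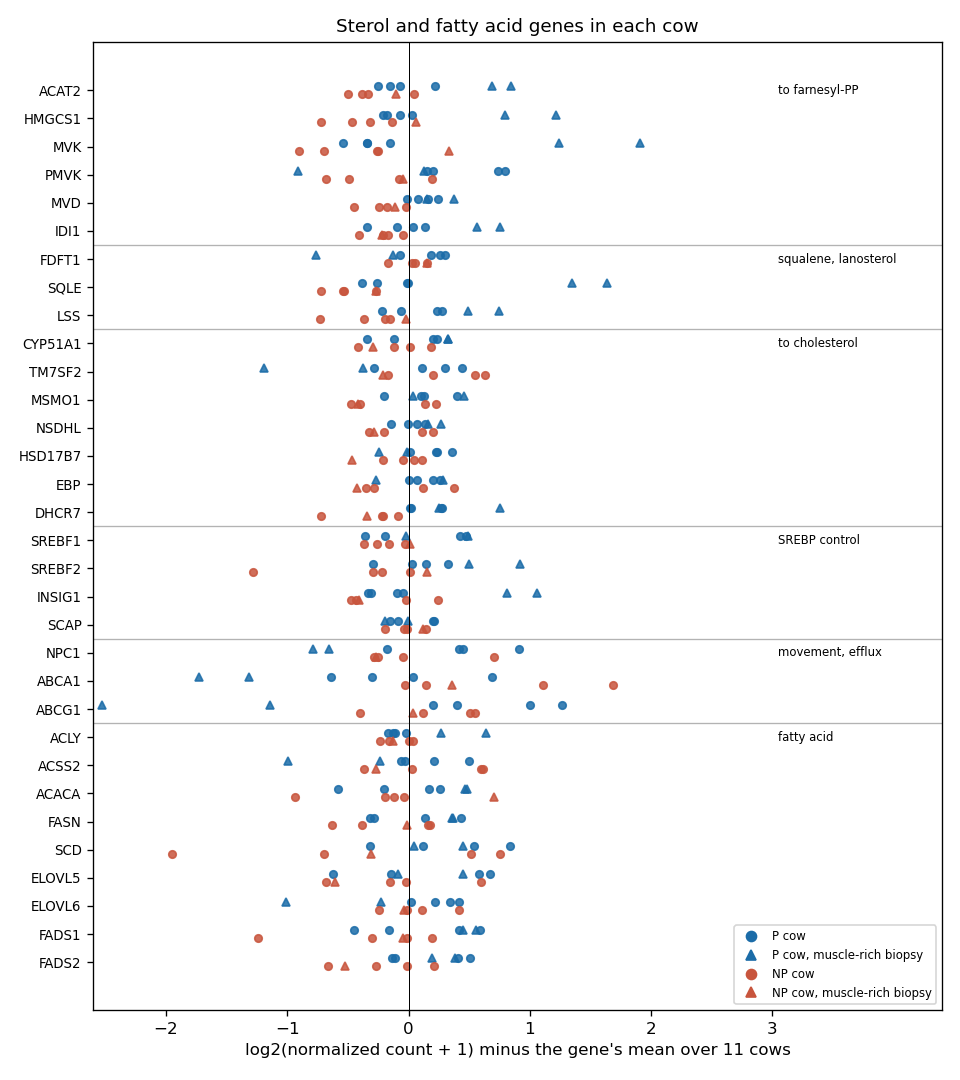
Log2(normalized count + 1) of the 32 members in each of the 11 cows, as the distance from the gene's mean over all cows, with P cows in blue, NP cows in red, triangles for the 3 muscle-rich biopsies and grey lines between the steps. The 2 blue triangles, P1541 and P617, lie to the right of the other 9 cows in 10 members and to the left of them in 4.

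The mean log2 level over the 16 sterol synthesis genes was 9.88 in P1631, 9.97 in P1753, 10.02 in P904, 10.19 in P617 and 10.38 in P1541, with P2396 between P1753 and P904. The NP cows stood at 9.62 (NP2810), 9.68 (NP2541), 9.71 (NP238), 9.75 (NP638) and 9.86 (NP856). The groups did not overlap in this mean, but the lowest P cow and the highest NP cow were nearly level. No background of other gene sets is given for such a mean, so it is a description only. Over the 9 fatty acid genes the same mean was 10.25 to 10.73 in P and 9.72 to 10.55 in NP cows, and here the groups overlapped.

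The first step group runs from acetyl-CoA to farnesyl pyrophosphate. All 6 of its measured genes were higher in P, with a median log2 fold change of 0.44, and 2 of them, ACAT2 and MVD, had an unadjusted p under 0.05.

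MVD (ENSBTAG00000012059), the mevalonate diphosphate decarboxylase that makes the isoprenoid unit, had 719, 808 and 938 normalized counts as the lowest, median and highest value in P cows. Its NP values were 528 (NP238), 610 (NP2541), 639 (NP2810), 670 (NP638) and 714 (NP856). The lowest P cow was thus just above the highest NP cow. The group means were 815 ± 75.8 (SD, n = 6) and 632 ± 69.8 (SD, n = 5), and the log2 fold change was 0.37 ± 0.11 (SE). A two-sided exact permutation test over the 462 assignments of the cows gave p = 0.00433, while the adjusted p of limma was 0.364, with 6 of 6 P cows above the NP median. Since the groups did not overlap, the permutation p mostly restates that separation. Under TMM scaling the groups of MVD overlapped.

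ACAT2 (ENSBTAG00000002827), which makes acetoacetyl-CoA from acetyl-CoA, was at 487, 611 and 1040 normalized counts as the lowest, median and highest P value. In NP cows it was at 459 (NP238), 409 (NP2541), 598 (NP2810), 537 (NP638) and 442 (NP856). Both P617 (934) and P1541 (1040) lay above the other 9 cows, P1753 (671) was also above the highest NP cow, and the other 3 P cows lay within the NP range. The log2 fold change was 0.47 ± 0.21 (SE; limma, unadjusted p = 0.0482, adjusted p = 0.634), and the two-sided exact permutation test gave p = 0.0714. The unadjusted p of limma rose above 0.05 when any of P1541, P1753, P617, NP238, NP2541, NP638 or NP856 was left out, up to 0.107.

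HMGCS1, the cytosolic HMG-CoA synthase and a classical SREBP target, had a lowest, median and highest value of 789, 903 and 2125 normalized counts in P. In NP cows it was at 661 (NP238), 733 (NP2541), 556 (NP2810), 955 (NP638) and 831 (NP856). The P cows with high values were again P1541 (2125) and P617 (1594), and the other 4 P cows overlapped the NP range. The means were 1188 ± 549 (SD, n = 6) and 747 ± 154 (SD, n = 5), and the log2 fold change of 0.58 ± 0.27 (SE) did not pass (limma, unadjusted p = 0.0519).

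MVK, the mevalonate kinase, showed the widest gap among the P cows of this step. It was at 1967 normalized counts in P617 and 1239 in P1541, at 657 in the third muscle-rich biopsy, NP638, and at 278 to 470 in the other 8 cows. Its log2 fold change of 0.65 ± 0.45 (SE) had an unadjusted p of 0.169 in limma and was 0.19 without the muscle-rich cows. The kinase of the next reaction, PMVK, went the other way in P617, which had the lowest of all 11 values (138), and its log2 fold change was 0.41 over all cows and 0.74 without the muscle-rich cows. IDI1, the isomerase that follows MVD, had a log2 fold change of 0.39 ± 0.18 (SE; limma, unadjusted p = 0.0564). The joint row of RUSC1 and FDPS had 0.21, and the part of each gene in that row cannot be told apart.

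The next genes make squalene and close it to lanosterol. Both enzymes after squalene, SQLE and LSS, were higher in P with an unadjusted p under 0.05, whereas FDFT1, the squalene synthase before them, had a log2 fold change of -0.08 ± 0.18 (SE; limma, unadjusted p = 0.672).

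SQLE (ENSBTAG00000005498), the squalene epoxidase, had a lowest, median and highest value of 823, 1071 and 3340 normalized counts in P. It was at 739 (NP238), 744 (NP2541), 650 (NP2810), 892 (NP638) and 894 (NP856) in NP cows. P617 (3340) and P1541 (2735) stood far above the other 9 cows, of which none was above 1075, and 5 of 6 P cows were above the highest NP cow. The means were 1657 ± 1091 (SD, n = 6) and 784 ± 106 (SD, n = 5). The log2 fold change was 0.85 ± 0.36 (SE; limma, unadjusted p = 0.0356, adjusted p = 0.589), and the two-sided exact permutation test gave p = 0.0411. The unadjusted p of limma was above 0.05 without P1541, P617, NP238, NP2541 or NP2810, and was highest without P1541 (0.0758).

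LSS (ENSBTAG00000018936), the lanosterol synthase, was at 1101, 1529 and 2150 normalized counts as the lowest, median and highest P value. Its NP values were 1150 (NP238), 994 (NP2541), 772 (NP2810), 1259 (NP638) and 1117 (NP856). The groups overlapped, with 4 of 6 P cows above the highest NP cow and P617 on top. The means were 1555 ± 382 (SD, n = 6) and 1058 ± 186 (SD, n = 5), and the log2 fold change was 0.54 ± 0.18 (SE; limma, unadjusted p = 0.0128, adjusted p = 0.459). The two-sided exact permutation test gave p = 0.026, and the unadjusted p of limma was at most 0.0366 whichever cow was left out.

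From lanosterol to cholesterol, 6 of 7 measured genes were higher in P, with a median log2 fold change of 0.21, and only DHCR7 had an unadjusted p under 0.05. None of the other 6 genes of this route passed.

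DHCR7 (ENSBTAG00000016465), the 7-dehydrocholesterol reductase of the last step of 1 branch of the route, had a lowest, median and highest value of 533, 634 and 895 normalized counts in P. In NP cows it was at 456 (NP238), 457 (NP2541), 321 (NP2810), 418 (NP638) and 499 (NP856). All 6 P cows lay above all 5 NP cows, with P617 apart at the top and NP2810 at the bottom. The means were 646 ± 131 (SD, n = 6) and 430 ± 67.4 (SD, n = 5), and the log2 fold change was 0.58 ± 0.16 (SE). The adjusted p of limma was 0.323, and the two-sided exact permutation test gave p = 0.00216, the smallest these group sizes allow. As for MVD, the permutation p mostly restates the separation of the groups. With an epithelial score as a covariate the adjusted p of limma was 0.0994, below the threshold of 0.1, in a fit that called 130 genes. With a smooth muscle score as a covariate the log2 fold change was 0.45 (limma, unadjusted p = 0.0245), and 0 genes passed the adjusted test.

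CYP51A1, the lanosterol demethylase, had a lowest, median and highest value of 1214, 1793 and 1925 normalized counts in P cows. It was at 1547 (NP238), 1417 (NP2541), 1153 (NP2810), 1257 (NP638) and 1752 (NP856) in NP cows. The ranges overlapped widely, and the log2 fold change was 0.23 ± 0.15 (SE; limma, unadjusted p = 0.161). The genes that act on the methyl groups at C4, MSMO1, NSDHL and HSD17B7, had log2 fold changes of 0.34, 0.18 and 0.21, and the isomerase EBP had 0.20. TM7SF2, a C14-reductase of sterols, was the gene of this step with a lower mean log2 level in P, at -0.37 ± 0.28 (SE; limma, unadjusted p = 0.218), with its lowest 2 values in P617 (345) and P1541 (607).

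The row of SC5DL, the older name of SC5D, was at 1287, 1415 and 2181 normalized counts as the lowest, median and highest P value. Its NP values were 1239 (NP238), 1217 (NP2541), 1044 (NP2810), 1174 (NP638) and 1339 (NP856). Only the lowest P cow was within the NP range, and P1541 stood apart at the top. The log2 fold change was 0.34 ± 0.14 (SE; limma, unadjusted p = 0.0274, adjusted p = 0.549), and the unadjusted p was 0.0673 without NP2810 and 0.0512 without NP638.

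**Figure D2:**
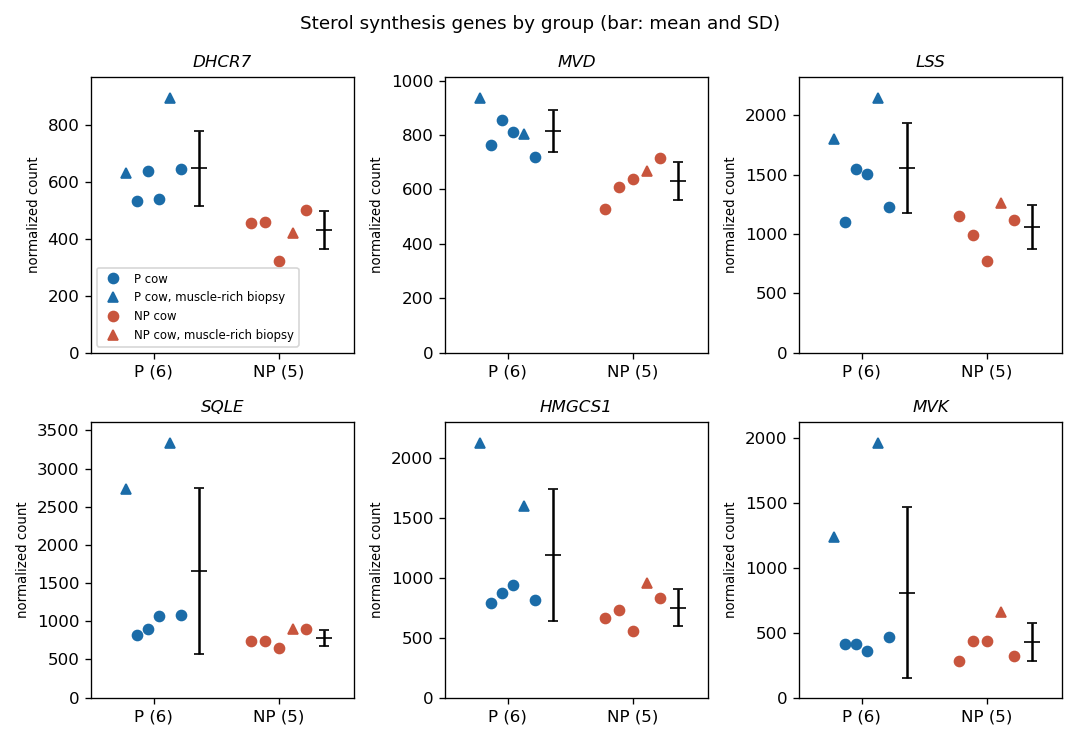
Normalized counts of 6 sterol synthesis genes in the 6 P cows (blue) and the 5 NP cows (red), with triangles for muscle-rich biopsies and the group mean with its SD in black. DHCR7 and MVD do not overlap between the groups, while in SQLE, HMGCS1 and MVK the high P mean comes with 2 cows, P617 and P1541, far above the rest.

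Among the 4 genes of SREBP control, 3 were higher in P, with a median log2 fold change of 0.35, and 1 had an unadjusted p under 0.05. SREBF2 (ENSBTAG00000014265), which encodes the SREBP that mainly drives sterol genes, was at 1828, 2629 and 4216 normalized counts as the lowest, median and highest P value. In NP cows it was at 1920 (NP238), 1826 (NP2541), 918 (NP2810), 2484 (NP638) and 2254 (NP856). The groups overlapped, P617 was the highest cow and NP2810 by far the lowest. The log2 fold change was 0.60 ± 0.27 (SE; limma, unadjusted p = 0.0474, adjusted p = 0.632), and the unadjusted p was above 0.05 without P1541, P1753, P2396, P617, NP238, NP2541 or NP2810. Without NP2810 the log2 fold change was 0.36 (limma, unadjusted p = 0.123).

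SREBF1, whose products mainly drive fatty acid genes, had a lowest, median and highest value of 2256, 3376 and 4076 normalized counts in P. Its NP values were 2836 (NP238), 2245 (NP2541), 2420 (NP2810), 2926 (NP638) and 2596 (NP856). Here 3 of 6 P cows were above all NP cows and the others were among them, and the log2 fold change was 0.30 ± 0.18 (SE; limma, unadjusted p = 0.119).

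INSIG1, which retains SCAP in the endoplasmic reticulum and is itself an SREBP target, was at 712, 853 and 1871 normalized counts as the lowest, median and highest P value. In NP cows it was at 885 (NP238), 663 (NP2541), 646 (NP2810), 675 (NP638) and 1058 (NP856). Only P617 (1871) and P1541 (1574) were above the NP range. The log2 fold change was 0.40 ± 0.27 (SE; limma, unadjusted p = 0.167) and became -0.02 without the muscle-rich cows. SCAP itself had a log2 fold change of -0.0081 ± 0.11 (SE), with ranges of 907 to 1198 in P and 905 to 1143 in NP cows.

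Of the 3 measured genes of sterol movement and efflux, 1 was higher in P, and the median log2 fold change was -0.29, which is the value of ABCG1. Its direction turned without P617 (0.18, with 2 of 3 higher in P) and in DESeq2 (0.12). ABCA1 was the one member that was higher in NP with an unadjusted p under 0.05.

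ABCA1 (ENSBTAG00000020661), which loads cell cholesterol onto apolipoprotein A-I, had a lowest, median and highest value of 200, 482 and 1068 normalized counts in P. It was at 2136 (NP238), 732 (NP2541), 1431 (NP2810), 852 (NP638) and 650 (NP856) in NP cows. Of the P cows, P617 (200) and P1541 (266) were the lowest of all, and the groups overlapped through 2 P cows. The means were 529 ± 317 (SD, n = 6) and 1160 ± 625.4 (SD, n = 5), and the log2 fold change was -1.20 ± 0.44 (SE; limma, unadjusted p = 0.0191, adjusted p = 0.504). The two-sided exact permutation test gave p = 0.0455. Without the muscle-rich cows it was -0.78 (limma, unadjusted p = 0.0833), and without NP238 the unadjusted p was 0.0553.

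ABCG1, which passes sterol on to high-density lipoprotein, was at 361 normalized counts in P617 and 950 in P1541, below all other cows, and at 1584 to 5044 elsewhere. Its log2 fold change was -0.29 ± 0.59 (SE; limma, unadjusted p = 0.629) over all cows and 0.53 without the muscle-rich ones. NPC1, which lets cholesterol out of lysosomes, had a log2 fold change of 0.06 ± 0.31 (SE), and P617 and P1541 were again the lowest 2 cows, at 592 and 646.

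Over all cows, fatty acid synthesis genes had a smaller median difference than the sterol genes. Of 9 measured genes 7 were higher in P, with a median log2 fold change of 0.25, and only FADS2 had an unadjusted p under 0.05. The difference between this median and that of the sterol genes was not tested.

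FADS2 (ENSBTAG00000015505), the delta-6 desaturase of polyunsaturated fatty acids, had a lowest, median and highest value of 3682, 4945 and 5742 normalized counts in P. In NP cows it was at 4673 (NP238), 3348 (NP2541), 2552 (NP2810), 2812 (NP638) and 4009 (NP856). The groups overlapped, with 3 of 6 P cows above all NP cows and P617 and P1541 not apart from the other P cows. The means were 4739 ± 871 (SD, n = 6) and 3479 ± 870 (SD, n = 5), and the log2 fold change was 0.46 ± 0.19 (SE; limma, unadjusted p = 0.0298, adjusted p = 0.563). The two-sided exact permutation test gave p = 0.0411. The unadjusted p of limma was above 0.05 without P1541, P1753, P2396, NP2541, NP2810 or NP638, and was highest without NP2810 (0.0822).

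FASN, the fatty acid synthase, was at 2020, 3002 and 3396 normalized counts as the lowest, median and highest P value. Its NP values were 2818 (NP238), 1933 (NP2541), 1624 (NP2810), 2498 (NP638) and 2853 (NP856). The ranges overlapped, and the log2 fold change was 0.25 ± 0.20 (SE; limma, unadjusted p = 0.228).

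SCD, which puts the first double bond into stearate, was at 271, 414 and 602 normalized counts as the lowest, median and highest P value. In NP cows it was at 571 (NP238), 208 (NP2541), 86.6 (NP2810), 273 (NP638) and 484 (NP856). NP2810 stood far below the others, and the log2 fold change of 0.61 ± 0.42 (SE; limma, unadjusted p = 0.174) was 0.21 without that cow.

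FADS1, the delta-5 desaturase, had a log2 fold change of 0.52 ± 0.27 (SE; limma, unadjusted p = 0.084). ACACA, the acetyl-CoA carboxylase, and ACLY, which makes cytosolic acetyl-CoA from citrate, had 0.22 and 0.18, and the elongase ELOVL5 had 0.31. A lower mean log2 level in P was measured for ACSS2, which makes acetyl-CoA from acetate (-0.22), and for the elongase ELOVL6 (-0.09). None of these 6 genes had an unadjusted p under 0.05.

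**Figure D3:**
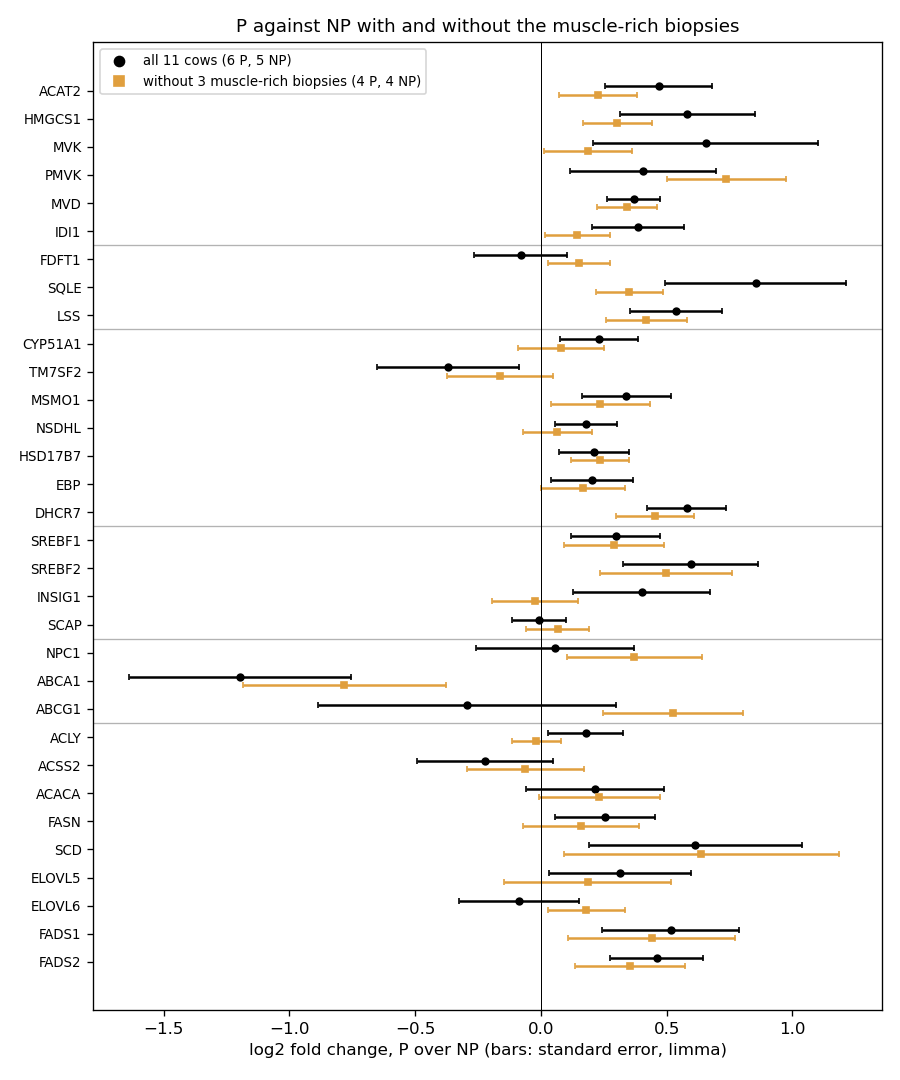
Log2 fold change, P over NP, of the 32 members with its standard error from limma, for all 11 cows (black circles) and without the 3 muscle-rich biopsies (orange squares), with grey lines between the steps. MVD stands at 0.37 and 0.34 and DHCR7 at 0.58 and 0.45 in the fits, while SQLE goes from 0.85 to 0.35 and ABCG1 from -0.29 to 0.53.

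Without the muscle-rich cows, 4 P and 4 NP cows remained. In these, 15 of the 16 sterol synthesis genes were higher in P, and their median log2 fold change was 0.23 in place of 0.38, beside 0.023 for all genes. By step the medians were 0.27 to farnesyl pyrophosphate, 0.35 for squalene and lanosterol and 0.17 from lanosterol to cholesterol. The fatty acid genes had a median of 0.19, with 7 of 9 higher in P, the genes of SREBP control 0.18, and those of movement and efflux 0.37. The 12 epithelial markers were likewise all higher in P among these cows, with a median of 0.41, and their part in these values was not tested.

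Of all 32 members, 5 had an unadjusted p under 0.05 in limma and were higher in P among these 8 cows, which is 15.6%, beside 3.81% of all genes, and 0 were higher in NP, beside 6.39% of all genes. All 5 were sterol synthesis genes, namely MVD, LSS, DHCR7, SQLE and PMVK, of which PMVK had not passed with all cows. For MVD and DHCR7 the groups still did not overlap, which was so for 1.75% of all genes with P higher and for 3.28% with NP higher. The log2 fold changes of MVD and DHCR7 were 0.34 and 0.45 (limma, unadjusted p = 0.0177 and 0.0169). The exact permutation test gave both p = 0.0286, the smallest that 4 against 4 cows allow. Every gene without overlap gets this value, so it only restates the separation. SQLE had 0.35 and LSS 0.42 (limma, unadjusted p = 0.027 and 0.0283). ACAT2, SREBF2 and FADS2 had 0.23, 0.50 and 0.35 and no longer an unadjusted p under 0.05. No member, and no gene of the table, had an adjusted p under 0.1 in this fit.

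With a smooth muscle score as a covariate in limma, 3 members had an unadjusted p under 0.05 and were higher in P, among them MVD at a log2 fold change of 0.29 and DHCR7 at 0.45. The third was HSD17B7 (0.40; unadjusted p = 0.00813). SQLE had 0.31 and MVK -0.10 in the same fit. The median log2 fold change in this fit was 0.234 for the sterol synthesis genes and 0.235 for the fatty acid genes.

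The muscle-rich P cows stood together at the top in a larger share of the members than of all genes, but not at the bottom. P1541 and P617 were both above the other 9 cows in 10 of the 32 members, which is 31.2%, beside 17.6% of all genes tested, and both below them in 4 members, which is 12.5%, beside 14.7% of all genes. The 10 were ACAT2, HMGCS1, MVK, IDI1, SQLE, LSS and CYP51A1 of sterol synthesis, SREBF2 and INSIG1 of its control, and ACLY. The 4 were TM7SF2 and all 3 genes of movement and efflux. All 9 smooth muscle markers were also above the other cows in both, and 8 of 12 epithelial markers were below. Without these 2 cows, an alternative chosen after seeing the data, 15 of the 16 sterol synthesis genes were higher in P, with a median log2 fold change of 0.23. The members higher in P with an unadjusted p under 0.05 were then PMVK, MVD, SQLE, HSD17B7 and DHCR7, and LSS had 0.35 (limma, unadjusted p = 0.0506). In that fit 1681 of 15081 genes had such a p in either direction, beside 1182 with all cows. The share of all genes higher in P with such a p is not given here for this fit.

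At the other end, NP2810 was the lowest of the 11 cows in 15 of the 32 members, of which 7 were sterol synthesis and 6 fatty acid genes. The share of all genes with their lowest value in NP2810 is not given here, so this count has no background beside it. It had the lowest value of the muscle actin row, 13869. Leaving NP2810 out left the median log2 fold change of the sterol synthesis genes at 0.38 and took that of the fatty acid genes from 0.25 to 0.14.

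**Figure D4:**
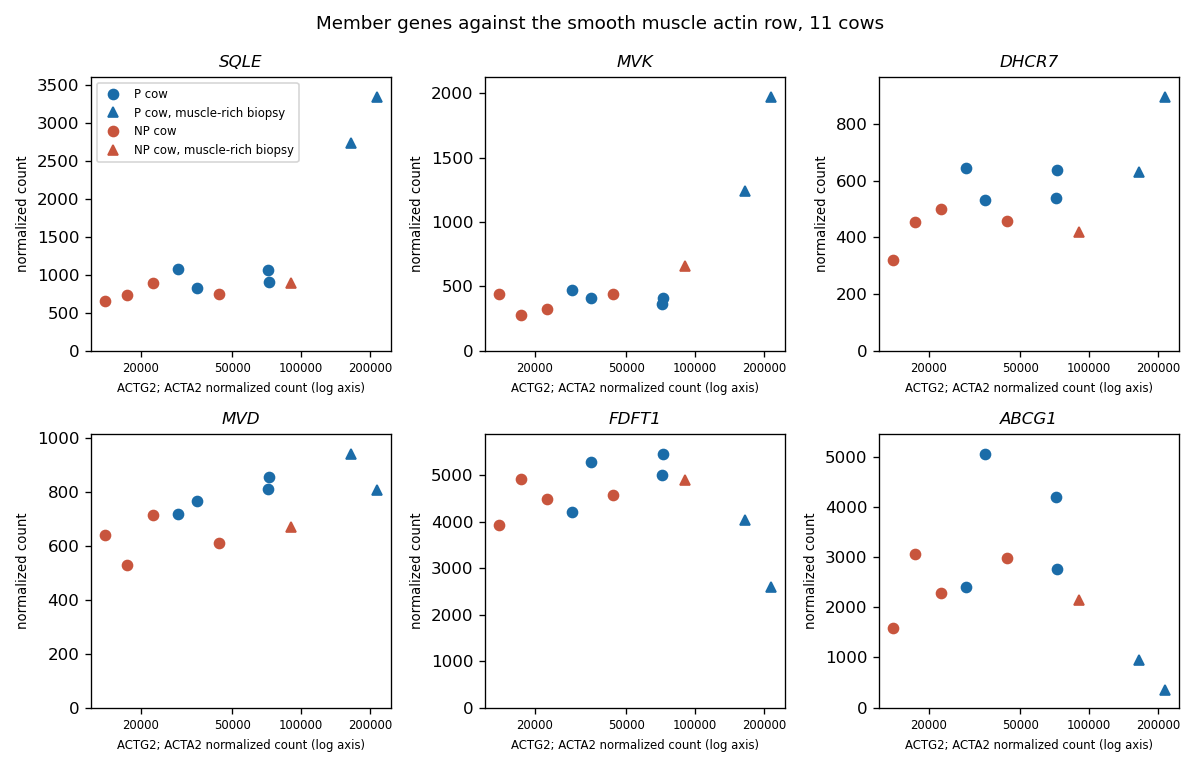
Normalized counts of 6 members against the normalized count of the joint ACTG2 and ACTA2 row (log axis) in the 11 cows, with P in blue, NP in red and triangles for muscle-rich biopsies. SQLE and MVK are high and ABCG1 low in the 2 P cows with the most muscle actin, while in MVD and DHCR7 all P cows lie above all NP cows. FDFT1 is lowest in P617 (2598), but P1541 (4041) lies above NP2810 (3933). The lowest 3 values of the row are NP cows and the highest 2 are P cows.

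Other genes of the same pathways were read from lists that hold no member. Of 7 measured other sterol genes, 4 were higher in P and 0 had an unadjusted p under 0.05.

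Among 18 measured genes of sterol uptake and of SREBP and LXR control, 0 were higher in P with an unadjusted p under 0.05 and 6 were higher in NP, which is 33.3%, beside 5.49% of all genes. They were APOE, MYLIP, NR1H3, APOA1, SCARB1 and STARD3. The count was 6 also without the muscle-rich cows, but these were not the same genes. APOA1 and SCARB1 no longer passed, and LRP1 (-0.70) and SOAT1 (-0.31) did (limma, unadjusted p = 0.00025 and 0.0474). In that fit MBTPS2 was higher in P (0.38; limma, unadjusted p = 0.0431). The groups of LRP1, SOAT1 and MBTPS2 did not overlap among these cows. That was so for 1.75% of all genes with P higher and 3.28% with NP higher. With all cows but 1, the count was 3 (16.7%) without P1541, without NP2541 or without NP2810. DESeq2 gave APOE and MYLIP an adjusted p under 0.1 (0.0217 and 0.0408), and it called 1.13% of all genes as higher in NP.

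APOE, the apolipoprotein that takes up effluxed sterol, had a lowest, median and highest value of 1453, 2006 and 3980 normalized counts in P. In NP cows it was at 6423 (NP238), 4147 (NP2541), 7719 (NP2810), 3069 (NP638) and 5474 (NP856). Only the muscle-rich NP638 lay within the P range. The log2 fold change was -1.27 ± 0.30 (SE; limma, unadjusted p = 0.00121, adjusted p = 0.264), and it was -1.18 without the muscle-rich cows, where the groups did not overlap. That was so for 3.28% of all genes with NP higher.

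MYLIP, an LXR target that encodes a ubiquitin ligase, was at 865, 936 and 1669 normalized counts as the lowest, median and highest P value and at 1537 to 2755 in NP cows. This gave a log2 fold change of -0.84 ± 0.20 (SE; limma, unadjusted p = 0.00135, adjusted p = 0.264), and it was -0.90 without the muscle-rich cows. NR1H3, which encodes LXR alpha, was at 409, 443 and 608 in P and at 537 to 827 in NP cows, with a log2 fold change of -0.46 ± 0.14 (SE; limma, unadjusted p = 0.00544, adjusted p = 0.368). Each of these groups overlapped by 1 P cow. APOA1, which accepts sterol from ABCA1, SCARB1, a receptor for high-density lipoprotein, and STARD3, a sterol carrier of late endosomes, had log2 fold changes of -0.96, -0.74 and -0.36.

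**Figure D5:**
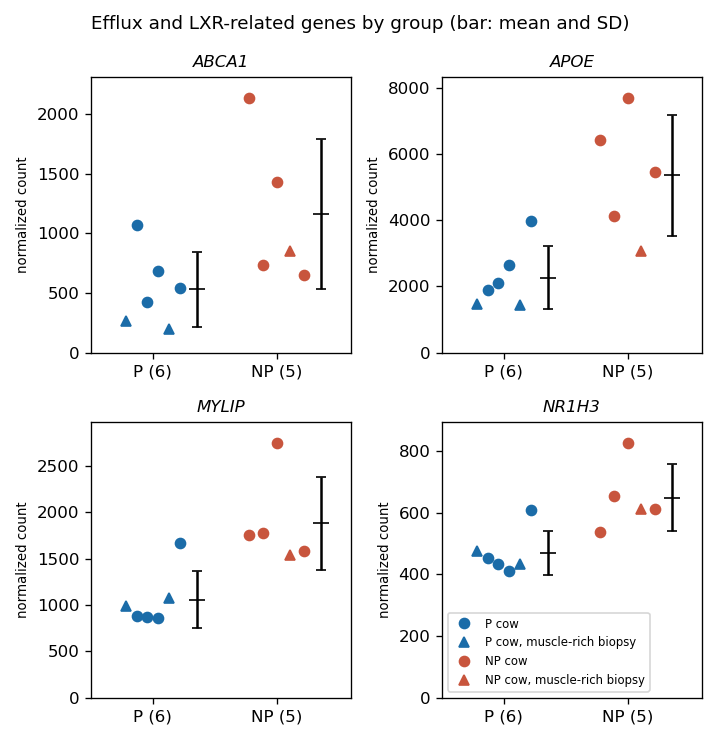
Normalized counts of ABCA1, APOE, MYLIP and NR1H3 in the 6 P cows (blue) and the 5 NP cows (red), with triangles for muscle-rich biopsies and the group mean with its SD in black. All 4 genes have a higher mean in NP cows, and the groups overlap in each.

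Of 25 measured other genes of fatty acid and glycerolipid metabolism, 14 were higher in P, 1 of them with an unadjusted p under 0.05, which is 4% beside 2.35% of all genes, and 1 was higher in NP with such a p, which is 4% beside 5.49%. ME1, the malic enzyme that supplies NADPH, was at 124 to 427 normalized counts in P and 114 to 171 in NP cows, with a log2 fold change of 0.59 (limma, unadjusted p = 0.0483). ACSL6, an acyl-CoA synthetase, was near the floor of the table at 2.01 to 16.9 in P and 8.15 to 18.0 in NP cows, with -1.04 (limma, unadjusted p = 0.0444). Without the muscle-rich cows ME1 had 0.33 and ACSL6 -1.28 (limma, unadjusted p = 0.206 and 0.0251). The elongase ELOVL2 was at 3.39 in P617 and 96.4 to 404 in the other cows. Its log2 fold change was -0.08 over all cows and 0.93 without the muscle-rich ones (limma, unadjusted p = 0.00454), where the groups did not overlap. That was so for 1.75% of all genes with P higher.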

How the data were processed

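RNA-Seq was available for endometrial biopsies of 6 P and 5 NP cows, each cow being 1 replicate. The authors filtered paired-end reads with Seqyclean, mapped them to UMD3.1 with Bowtie2 2.1.0, counted them per gene with HTSeq 0.5.4p2 and normalized them with DESeq2 1.12.1, as the study's methods and the submitters' processing notes give. The authors deposited 1 table of these normalized counts, which is a signal of 0 or more. Whether strand was used in counting is not given in the sources used here, so reads of overlapping or near-identical genes cannot be told apart. Divided by the value of a single read in that cow (0.784 to 1.14), 100% of the entries came out whole within 0.01 reads, which gave 9290949 to 13569085 reads. One read is thus near 1 normalized count, and precision at the members' levels is limited by the spread among cows.

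Log2(value + 1) of the 15081 genes averaging 5 or more was fitted in limma 3.58.1 (lmFit, eBayes with trend; R 4.3.3) with the Benjamini-Hochberg adjustment over all of them at 0.1. Fold changes are P over NP on that scale, whereas the study gives NP over P. Alternatives were edgeR 4.0.16, DESeq2 1.42.0 (no prior, no independent filtering) and limma-voom on the reads so recovered, other scalings, pseudocounts, filters, covariates and left-out cows. The fits were tested on simulated data. Single genes were also tested with a two-sided exact permutation test over 462 assignments of the cows, whose smallest p is 0.00216.

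Members, lists and marker genes were chosen with earlier results of these data known. Every member is accounted for. Values by cow are given for members with an unadjusted p under 0.05 or without overlap, and for HMGCS1, SQLE, CYP51A1, SREBF1, SREBF2, INSIG1, FASN, SCD and ABCA1 whatever their values. Genes of the other lists are named at an unadjusted p under 0.05 or without overlap, over all cows or without the muscle-rich ones. MVK, PMVK and other members were chosen for a closer account after their values were seen. Muscle-rich means at least 80000 normalized counts in the ACTG2 and ACTA2 row. Cow P617, labelled P, is named as NP in a supplement of the study and was kept as labelled. Promoters and sequences were not analysed here, and 3 genes of the other lists that were to be named in any case are not reported here.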

Additional observations from a re-analysis of the deposited data

Results flagged for a closer look

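In 3 of the 68 sets of a gene and a group, 1 cow lay farther from the others than Dixon's criterion allows on the log2 scale, and chance alone gives about 1 in 20 such sets. SC5DL was at 2181 normalized counts in P1541, beside 1558 in P617 as the nearest P cow. DHCR7 was at 895 in P617, beside 644 in P904, and without P617 the unadjusted p of limma stayed under 0.05. NPC1 was at 1659 in NP2541, beside 988 in NP238.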

How the results depend on the processing

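Over 25 alternative settings, 12 counts moved by more than the limit of 1.5 times and 40 log2 fold changes of single genes turned sign, all of the latter for genes with no unadjusted p under 0.05 over all cows. DESeq2 called 201 genes, 2 of them members (MVD and DHCR7, at log2 fold changes of 0.37 and 0.59), and with an epithelial score as a covariate limma called 130 genes, 1 of them a member (DHCR7, 0.54). Limma called 17 genes, 0 of them members, without P617 and P1541, an alternative chosen after seeing the data. With 1 cow left out, 0 to 171 genes were called, 171 of them without P904 and 0 without any other cow, and 0 to 0 members. By edgeR 0 genes were called, with 1151 at an unadjusted p under 0.05, by limma-voom 0, with 1173, and by limma 0, with 1182. The number of members higher in P at an unadjusted p under 0.05 was 7, with 3 to 11 when 1 cow was left out (1.27% to 3.38% of all genes), 3 with the smooth muscle score (1.52%) and 12 with the epithelial score as a covariate (4.39%). Members without overlap were 2, with 2 to 3 when 1 cow was left out and 1 under TMM scaling. Leaving out a cow cannot lower this count.

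Of the log2 fold changes that turned sign, those without the muscle-rich cows became -0.0080 (RUSC1; FDPS), 0.15 (FDFT1), -0.024 (INSIG1), 0.066 (SCAP), 0.53 (ABCG1), -0.019 (ACLY) and 0.18 (ELOVL6). With the smooth muscle score as a covariate they became -0.10 (MVK), -0.045 (RUSC1; FDPS), 0.059 (FDFT1), 0.057 (TM7SF2), 0.012 (SCAP), 0.45 (ABCG1), 0.12 (ACSS2), -0.25 (ACACA) and 0.26 (ELOVL6). Without P617 and P1541 they became -0.030 (RUSC1; FDPS), 0.13 (FDFT1), 0.038 (SCAP), 0.56 (ABCG1), -0.010 (ACLY), 0.034 (ACSS2) and 0.20 (ELOVL6). ABCG1 was at 0.11 and 0.12 in edgeR with TMM and with DESeq2 size factors and at 0.12 in DESeq2. With 1 cow left out the values ran from -0.15 to 0.066 for FDFT1, -0.057 to 0.029 for SCAP, -0.12 to 0.24 for NPC1, -0.57 to 0.18 for ABCG1 and -0.18 to 0.11 for ELOVL6. The causes were not tested.

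No paired analysis was possible because the cow numbers are not shared between the groups. The muscle content of the biopsy and the later diagnosis cannot be fully told apart with 6 and 5 cows, since the smooth muscle markers differed between the groups even without the muscle-rich cows. At the members' levels counting error is small beside the spread among cows.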
